A study of Rattus norvegicus with 6 samples.

Results

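Cyclin-dependent kinases (CDKs) drive the cell cycle and are held back by small inhibitor proteins. The 9 genes described here are 6 of those inhibitors and 3 partners of the p53 and retinoblastoma arrest pathways, and each was found by its gene symbol among the 17525 genes of the deposited table. They are the Cip/Kip inhibitors Cdkn1a (p21), Cdkn1b (p27) and Cdkn1c (p57), and the Ink4 inhibitors Cdkn2a (p16 and Arf), Cdkn2b (p15) and Cdkn2c (p18). Rb1 encodes the retinoblastoma protein that the inhibitors keep active, Mdm2 the ubiquitin ligase that degrades p53, and Ccng1 cyclin G1, a p53 target.

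The RNA came from primary cultured granulosa cells of SD rats aged 21 days, which had received 60 IU of PMSG, an equine gonadotropin that stimulates follicle growth, 48 h before their ovaries were taken. The titles place 3 libraries in a group named ATR and 3 in a group named Control. The series' title names the herbicide atrazine, but ATR is not spelled out in the labels read for this work, which give no dose or duration and do not say whether animals or cultures were exposed. Libraries titled Control are not analysed here. Each value below is therefore a level in the ATR libraries or a difference between them, and none is an effect of an exposure.

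Cip/Kip proteins bind cyclin and kinase together and act mainly on CDK2 complexes, whereas Ink4 proteins bind CDK4 and CDK6 alone and keep D-type cyclins off them. Both leave the retinoblastoma protein unphosphorylated, so that it stays on E2F factors and genes of S phase are not transcribed. After DNA damage p53 switches on Cdkn1a, and it also switches on Mdm2, whose product then lowers p53 again. In the ovary p27 is known as a brake on granulosa cell division, and the same cells stop dividing as they luteinise.

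Sequence upstream of 8 of the 9 genes was found in a RefSeq promoter table (build GRCr8, windows of 250 bases before to 50 after an annotated start), and Cdkn1c had no entry. All 8 windows were searched for p53 half-sites, because Cdkn1a, Mdm2 and Ccng1 are known p53 targets. The Mdm2 window held no half-site, which speaks of these letters in this window alone. The stretches are where a member's window held a pair of p53 half-sites of 10 bases each. The search allowed at most 13 bases between the half-sites and at most 1 mismatch in the 20 letters, and the p53 half-site reads the same on both strands. Capitals mark the pair, which begins 201 bases before the start of Cdkn1a (chr20:7150716-7150765, plus strand) and 242 bases before that of Ccng1 (chr10:25685084-25685126, minus strand).

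Cdkn1a: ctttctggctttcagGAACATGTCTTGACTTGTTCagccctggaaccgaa

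Ccng1: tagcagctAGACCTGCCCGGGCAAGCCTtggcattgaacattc

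In Cdkn1a the first half-site matched fully and the second had 1 mismatch, and in Ccng1 the order was the other way round. Such a pair was found in 335 of 33469 promoter windows (1.00%), and 20 windows held one with no mismatch. A single full half-site was found in 7.98% of windows, and in 4 of the 8 here, those of Cdkn1a, Ccng1, Cdkn2c and Rb1. Among 21 windows of other p53 target genes, 1 held a pair, that of Gadd45a, a gene of DNA repair and arrest. These matches describe letters in the window and no binding was measured.

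The 3 ATR libraries held 18677212 to 19170552 reads assigned to genes. Levels are given in TPM, a share of all transcripts that is scaled for transcript length and can be compared between genes. Each error is an SD with n = 3. The labels tie no library to an animal or a culture of its own, and p-values measure only the spread between these libraries, which may be technical. Of 12 granulosa markers, 10 reached a mean of 1 TPM, with a summed level of 2841 to 3247 TPM, while Cyp19a1 (aromatase) and Amh did not exceed 2.33 estimated reads. The 8 markers of surface epithelium summed to 2122 to 2277 TPM and the 8 of stromal fibroblasts to 900.3, 1446 and 1243 TPM in ATR 1, ATR 2 and ATR 3. Smooth muscle markers summed to 16342 to 17684 TPM over 7 genes. Nearly all of that came from Tagln (mean 10890 TPM) and Acta2 (5496), while Des (11.8) and Notch3 (1.34) were low. Endothelial markers summed to at most 4.65 TPM over 6 genes, oocyte markers to at most 1.52 over 5, theca markers to at most 112.0 over 5, and leukocyte markers to at most 119.9 over 7, with no marker at 0 in every library. Star (mean 97.3 TPM) made up nearly all of the theca sum, and Cyp17a1, Insl3 and Lhcgr did not exceed 0.20 TPM. Red cell markers summed to 410.1 to 536.8 TPM over 4 genes, nearly all of it from Hba-a1, whose estimated counts were not all whole. In such bulk RNA, fewer cells of a type and less RNA per cell cannot be told apart.

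The 9 genes spanned about 3 orders of magnitude. Of them 8 reached a mean of 1 TPM, against 71.4% of all genes, and 4 reached 100 TPM. Their median was 44.8 TPM beside 10.1 TPM over the whole table. Together they held 0.204%, 0.206% and 0.194% of all TPM in ATR 1, ATR 2 and ATR 3. From highest to lowest the order was Cdkn1a, Ccng1, Mdm2, Cdkn2b, Cdkn2a, Cdkn1b, Rb1, Cdkn2c and Cdkn1c. Every neighbouring pair in that order had separate ranges over the 3 libraries except Cdkn2a and Cdkn1b, whose TPM ranges overlapped.

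**Figure D1:**
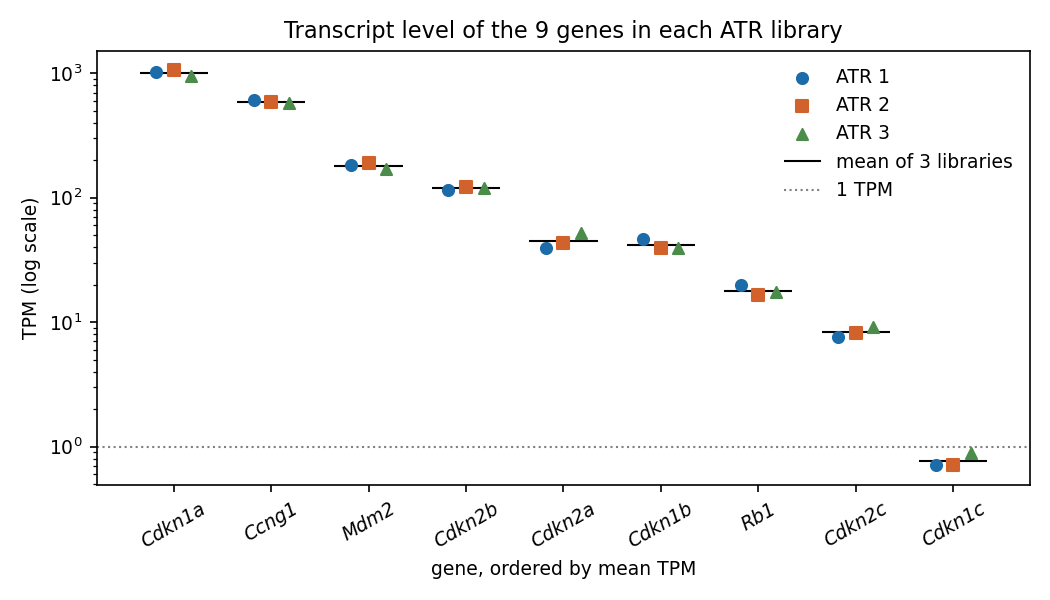
TPM (log scale) of the 9 genes in each of the 3 ATR libraries, with the mean as a horizontal line and 1 TPM as a dotted line. Cdkn1a lies near 1000 TPM in all libraries and Cdkn1c below 1 TPM in all of them, and only Cdkn2a and Cdkn1b overlap among neighbours.

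Among the Cip/Kip inhibitors, transcripts of Cdkn1a outnumbered the others by far. Cdkn1a, which binds CDK2 complexes and the replication clamp PCNA, measured 1018 TPM in ATR 1, 1055 in ATR 2 and 959.9 in ATR 3 (values below keep that library order), a mean of 1011 ± 47.9 TPM (SD, n = 3). That placed it at rank 154 of 17525 genes, and it supplied 95.6%, 96.3% and 95.9% of the summed Cip/Kip TPM. Cdkn1b, whose protein is controlled largely through its stability, stood at 46.7, 39.6 and 39.8 TPM, with ATR 1 above the others. Its mean was 42.0 ± 4.04 TPM (SD, n = 3), and Cdkn1a exceeded it 21.8-fold, 26.7-fold and 24.1-fold. Cdkn1c, an imprinted gene that restrains growth in development, stood at 0.710, 0.710 and 0.880 TPM from 12, 12 and 15 reads. At that depth its levels in the 3 libraries could not be ordered.

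Transcripts of the Ink4 genes among the 9 were scarcer, and Cdkn2b made up most of them. Summed Ink4 TPM takes in Cdkn2a, Cdkn2b and Cdkn2c alone, without Cdkn2d. Cdkn2b, known as a TGF-beta-induced inhibitor of CDK4 and CDK6, stood at 115.1, 121.3 and 120.7 TPM, a mean of 119.0 ± 3.45 TPM (SD, n = 3) with little spread. Cdkn2a stood at 39.4, 43.5 and 51.6 TPM, a mean of 44.8 ± 6.20 TPM (SD, n = 3), lowest in ATR 1 and highest in ATR 3. That gene encodes p16 and, from another first exon, the p53 activator Arf, and one value per gene does not separate them. Cdkn2c stood at 7.64, 8.15 and 9.14 TPM, a mean of 8.31 ± 0.763 TPM (SD, n = 3), from 96, 103 and 118 reads. The shares of summed Ink4 TPM were 71.0%, 70.1% and 66.5% for Cdkn2b, and 24.3%, 25.2% and 28.4% for Cdkn2a. In the RefSeq gene table Cdkn2a and Cdkn2b lie on the same chromosome with a single predicted gene between them. Summed Cip/Kip TPM was 6.58, 6.33 and 5.51 times summed Ink4 TPM.

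The sum of Cdk4 and Cdk6, the kinases that Ink4 proteins bind, was above the summed Ink4 inhibitors without Cdkn2d and below Cdkn1a. Cdk6 alone, at 98.4 ± 7.96 TPM and with estimated counts that were not all whole, was below Cdkn2b. Cdk4 and Cdk6 together stood at 471.0, 477.2 and 490.3 TPM, so that summed Ink4 TPM was 0.344, 0.362 and 0.370 of theirs. CDK2, the kinase that Cip/Kip proteins chiefly block, is encoded by Cdk2 at 26.6 ± 2.05 TPM (SD, n = 3), and Cdkn1a exceeded it 35.3-fold, 42.3-fold and 37.1-fold. The D cyclins Ccnd1, Ccnd2 and Ccnd3 summed to 700.2, 691.2 and 738.7 TPM, or 710.0 ± 25.2 (SD, n = 3). Cdkn1a was 1.45, 1.53 and 1.30 times that sum. These are ratios of RNA and give no measure of protein.

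Rb1 is the end point of these brakes. It stood at 19.8, 16.7 and 17.3 TPM, a mean of 17.9 ± 1.65 TPM (SD, n = 3), highest in ATR 1. Its relatives Rbl1 (p107) and Rbl2 (p130) stood at 6.02 ± 1.34 and 16.9 ± 1.07 TPM (SD, n = 3). Rb1 thus made up 46.0%, 43.5% and 42.0% of the TPM of the 3 pocket proteins. Because TPM is scaled for length, Rb1 had more reads than Cdkn2a (782, 662 and 703 against 235, 261 and 316) at a lower TPM.

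The genes of the p53 feedback loop were among the best expressed. Ccng1, whose product is known to recruit a phosphatase that acts on Mdm2, stood at 607.5, 589.4 and 572.6 TPM, a mean of 589.8 ± 17.5 TPM (SD, n = 3) and rank 265. Mdm2 stood at 182.1, 189.4 and 171.6 TPM, a mean of 181.0 ± 8.91 TPM (SD, n = 3) and rank 1007. Its partner Mdm4, which blocks p53 without degrading it, stood at 10.0 ± 0.956 TPM, and Mdm2 exceeded it 16.5-fold, 20.6-fold and 17.6-fold. Ccng1 exceeded its relative Ccng2, a cyclin G that FOXO factors induce, 14.96-fold, 16.2-fold and 16.4-fold.

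Differences between the libraries exceeded counting noise for 4 of the 9 genes, and none of those 4 differed by more than 1.35 times. A chi-square test compared each gene's 3 counts with the scaled library sizes, with Benjamini-Hochberg adjustment over the 13309 genes that had at least 30 reads in all. It called Cdkn1a, Cdkn2a, Mdm2 and Ccng1 at an adjusted p under 0.05, or 44.4% of the 9, against 23.2% of all genes tested. Because the test gains power with reads, the share called was 50.7% among genes at 100 TPM or more, where 3 of 4 members were called. As a share of the mean TPM, the SD was 4.74% for Cdkn1a, 4.92% for Mdm2, 2.96% for Ccng1 and 13.8% for Cdkn2a. The median of that share over genes at 1 TPM or more was 6.16%. The test compares these libraries and not conditions. It also counts duplicate reads as independent, since no molecular identifiers are described.

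Cdkn1a had the smallest adjusted p of the 9, 4.47e-14 by the chi-square test, yet its scaled reads in ATR 2 were only 1.09 times those in ATR 3 (exact 95% interval 1.07 to 1.12, counting error only). Mdm2 had the same order, with ATR 2 at 1.10 times ATR 3 (1.05 to 1.14) and an adjusted p of 3.52e-04. Ccng1 was highest in ATR 1 and lowest in ATR 3, at a ratio of 1.03 (1.01 to 1.05) and an adjusted p of 0.0446. Without ATR 1 and without ATR 3 its adjusted p was 0.167 and 0.675, and without ATR 2 that of Mdm2 was 0.353. Cdkn2a differed the most among the called genes, with ATR 3 at 1.35 times ATR 1 (1.13 to 1.60) and an adjusted p of 0.0123. Without ATR 1 its adjusted p was 0.172, and without ATR 3 it was 0.416.

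The other 5 genes did not pass the test. Rb1 missed the threshold narrowly, with an adjusted p of 0.0531 and ATR 1 at 1.16 times ATR 2 (1.05 to 1.29). Cdkn1b had an adjusted p of 0.0590 and ATR 1 at 1.15 times ATR 3 (1.04 to 1.27). With library totals in place of TMM scaling both passed, at 0.0488 for Rb1 and 0.0437 for Cdkn1b. Cdkn2b had an adjusted p of 0.0718 and a ratio of ATR 2 to ATR 1 of 1.08 (1.02 to 1.14). For Cdkn2c the ratio of ATR 3 to ATR 1 was 1.23 (0.932 to 1.63), and for Cdkn1c it was 1.25 (0.547 to 2.93), with adjusted p of 0.513 and 0.886. Those intervals do not exclude differences in either direction.

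**Figure D2:**
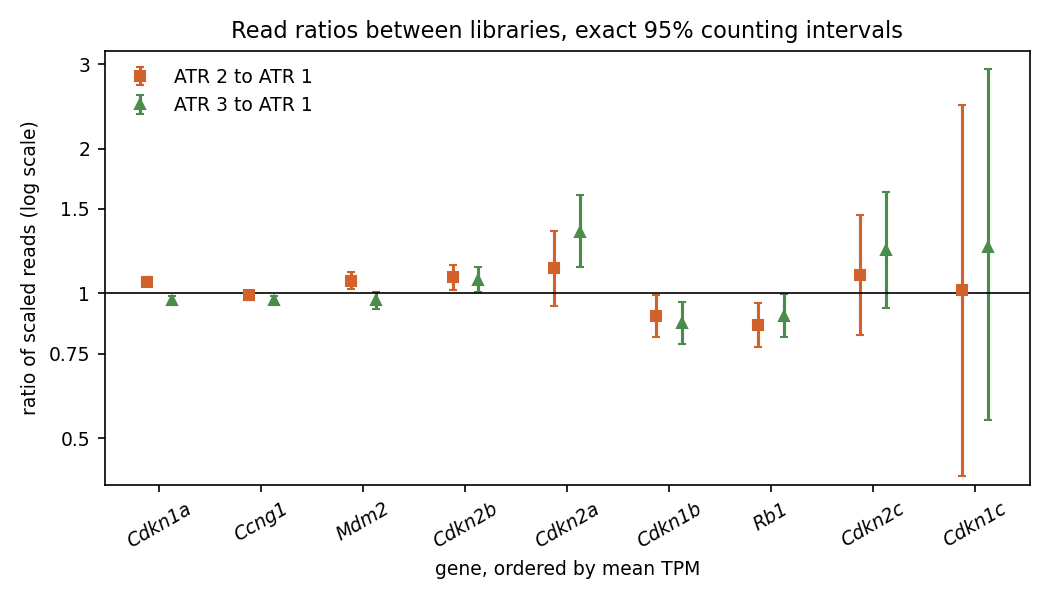
Ratio of TMM-scaled reads in ATR 2 and in ATR 3 to those in ATR 1 (log scale) for the 9 genes, with exact 95% intervals for counting error. Genes are ordered by mean TPM, and intervals follow the number of reads, narrow for Cdkn1a and widest for Cdkn1c. Cdkn2a, with fewer reads, has wider intervals than Cdkn1b and Rb1 to its right. Cdkn2a in ATR 3 lies highest of the called genes at 1.35.

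The 9 genes did not follow a single order of libraries. Cdkn1b, Rb1 and Ccng1 had their most scaled reads in ATR 1, Cdkn1a, Mdm2 and Cdkn2b in ATR 2, and Cdkn2a, Cdkn2c and Cdkn1c in ATR 3. The 3 genes that were lowest in ATR 3 with a call were Cdkn1a, Mdm2 and Ccng1, all p53 targets. Other called p53 targets did not share 1 lowest library. In scaled reads Gadd45g was lowest in ATR 3, Phlda3 and Bax in ATR 1, and Tp53inp1 in ATR 2. In TPM, Zmat3 (56.19, 52.48 and 50.94) and Aen (94.98, 99.88 and 91.03) were lowest in ATR 3, and Sesn2 (52.53, 58.46 and 53.05) in ATR 1. The summed level of the stromal markers was lowest in ATR 1, with most of the difference in Col1a2 (287.4, 800.7 and 600.9 TPM), while 3 of the 8, Dcn, Ogn and Col14a1, were highest there. The summed granulosa markers were highest in ATR 1, as were 6 of the 12, and the part of either in the order of Cdkn2a, Cdkn1b or Rb1 was not tested. For Cdkn1b the lowest library depended on the scale, which was ATR 2 in TPM and ATR 3 in scaled reads. Its reads per TPM, which follow the transcript length behind the authors' value, varied between libraries by 2.27% (coefficient of variation). The median of that variation was 0.101% over 10264 genes above 5 TPM, and 840 of them varied more than Cdkn1b.

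One ratio within the libraries was close to constant, a feature singled out after the values were seen. Cdkn1a had 3.75, 3.73 and 3.75 reads for each Mdm2 read in ATR 1, ATR 2 and ATR 3, with exact 95% intervals of 3.63 to 3.88, 3.62 to 3.86 and 3.63 to 3.88. The spread of those ratios was smaller than the counting error of any of them. The Cdkn1a to Ccng1 read ratio was 0.980 (0.960 to 1.00), 1.05 (1.02 to 1.07) and 0.980 (0.959 to 1.00), higher in ATR 2 than in the others with intervals apart. The Cdkn2b to Cdkn2a read ratio was 9.50 (8.30 to 10.9), 9.09 (7.99 to 10.4) and 7.54 (6.71 to 8.51). Those intervals overlap, which does not settle whether the ratios differ, and that difference was not tested. With 3 libraries no correlation between genes was computed.

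**Figure D3:**
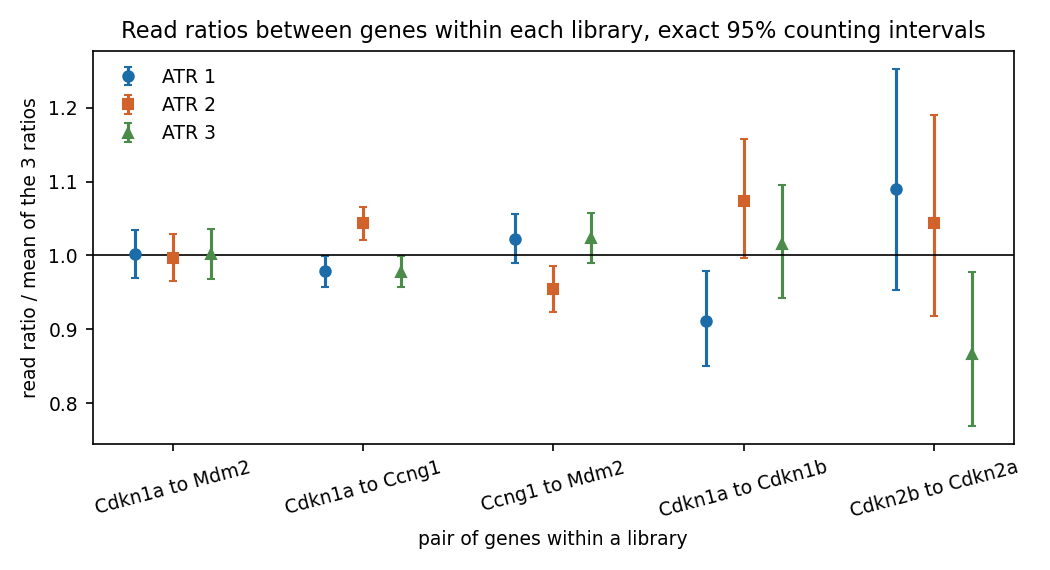
Read ratios of 5 gene pairs within each ATR library, each divided by the mean of its 3 ratios, with exact 95% counting intervals. The Cdkn1a to Mdm2 ratios lie within 0.997 to 1.00 of their mean, while the Cdkn2b to Cdkn2a ratios run from 1.09 in ATR 1 to 0.866 in ATR 3.

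The genes around these 9 were described by lists covering upstream kinases, further targets, pocket proteins, cyclins, ligases, transcriptional regulators, proliferation and senescence. All 17 measured upstream p53 kinases and regulators reached 1 TPM, with a median of 24.8 TPM. Among them Rfwd2 (the p53 ligase COP1) stood at 69.9 ± 2.77 TPM and the deubiquitinase Usp7 at 63.0 ± 0.538 TPM. The spread test called 2 of the 17 (11.8%, against 23.2% of all genes). One was the p53 kinase Hipk2 (45.9, 40.1 and 41.9 TPM). Neither was called without ATR 1, and the count was 3 without ATR 2 and 1 without ATR 3. Other p53 target genes had a median of 40.1 TPM over 27 measured, 26 of them above 1 TPM and 5 above 100 TPM. Phlda3, an Akt inhibitor, led at 296.4 ± 12.4 TPM, followed by the death effector Bax at 234.6 ± 11.8 and the stress gene Gadd45g at 134.3 ± 13.5 TPM. Of 26 tested, 7 were called (26.9%), a share near the 23.2% of all genes. Of the 7, 4 were highest in ATR 2 and 3 in ATR 1, and without ATR 1 and without ATR 2 the count was 1 and 4. Tp53inp1 had the largest ratio of them, 1.19 (1.12 to 1.26) for ATR 1 to ATR 2. Its call, and those of Phlda3, Bax and Gadd45g, were lost without ATR 1, and that of Bax was lost without ATR 2 as well.

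Among 17 measured genes, made up of Cdkn3, pocket proteins, E2F factors and their partners, the median was 11.6 TPM. The E2F partner Tfdp1 led at 75.7 ± 3.21 TPM, followed by the repressor E2f4 at 34.0 ± 0.928 and the DREAM subunit Lin37 at 28.8 ± 4.07 TPM. Cdkn2d, the other Ink4 gene, is not analysed here. Rbl1 and the repressor E2f8 were the 2 genes called of 17 tested (11.8%), both highest in ATR 3. The call of Rbl1 was lost without ATR 3, and that of E2f8 without ATR 2 and without ATR 3. Rbl1 stood at 5.12, 5.39 and 7.56 TPM, and E2f8 at 1.43, 1.25 and 2.12 TPM. Of 15 genes for turnover of the inhibitors by ubiquitin, 4 reached 100 TPM, led by the ligase subunits Skp1 at 722.3 ± 3.40, Ddb1 at 643.9 ± 9.17 and Rbx1 at 195.2 ± 5.85 TPM. Ddb1 was the single gene called of 15 tested (6.67%), at a ratio of 1.03 (1.01 to 1.05), and its call was lost without ATR 2, without ATR 3 and with library totals.

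A list of 19 genes held cyclins and kinases on which the inhibitors act. It also held Cdk7, Ccnh and Mnat1 and the phosphatases Cdc25a, Cdc25b and Cdc25c. Of the 19, 18 were tested, and 11 of those had their most scaled reads in ATR 3 and 7 in ATR 1. Cdk7, Ccnh, Mnat1, Cdc25a and Cdc25c were among the 7, and neither they nor Cdc25b were called. Over all 13309 genes tested, 4244 were highest in ATR 3 and 4529 in ATR 1. The test called 9 of the 18 (50.0%, against 23.2% of all genes), and all 9 were highest in ATR 3, where 7.51% of all genes tested were both called and highest. Without ATR 3 the count was 3. Ccnd2, the main D cyclin of granulosa cells, stood at 455.3, 442.3 and 482.6 TPM and Cdk4 at 369.3, 387.9 and 386.2 TPM, and both had their most scaled reads in ATR 3. Ccnd3 stood at 228.2, 220.9 and 213.1 TPM and was not called. Ccnd1 had the largest ratio, 2.63 (2.39 to 2.90) for ATR 3 to ATR 1, at 16.7, 28.1 and 43.0 TPM. The cyclin E gene Ccne2 followed, with ATR 3 at 1.39 times ATR 2 (1.16 to 1.68). The call of Ccnd1 held with each library left out. Those of Ccnd2 and Ccne2 were lost without ATR 3, and that of Cdk4 without ATR 1.

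Cell cycle progression genes gave the same library the highest values. All 25 reached 1 TPM, with a median of 22.2 TPM. Of them 24 had their most scaled reads in ATR 3, beside 4244 of the 13309 genes tested. The test called 16 of them (64.0%, against 23.2% of all genes), each highest in ATR 3. Without ATR 3 it called 2, where 2230 of 12868 genes tested were called. Pcna, the replication clamp that p21 binds, stood at 83.3, 84.5 and 99.1 TPM, and Rrm2, a subunit of ribonucleotide reductase, at 74.0, 69.6 and 88.6 TPM. Tyms, which makes thymidylate, stood at 57.9 ± 2.11 TPM and was not called. The proliferation marker Mki67 had the largest ratio, with ATR 3 at 1.77 times ATR 2 (1.63 to 1.93), followed by the mitotic kinase Plk1 at 1.45 times (1.26 to 1.67). The call of Mki67 held with each library left out, and those of Pcna, Rrm2 and Plk1 were lost without ATR 3. In ATR 3, where these genes were highest, Cdkn1a and Mdm2 were lowest and Cdkn2a highest of the 3 libraries. The part of proliferation in those orders was not tested.

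Regulators of the Ink4 locus and of Kip transcription had a median of 29.3 TPM over 28 measured genes, and 3 reached 100 TPM. These were the helix-loop-helix inhibitors Id3 at 450.8 ± 49.6, Id2 at 138.3 ± 12.4 and Id1 at 115.7 ± 3.36 TPM. As for Cdk6 above, the estimated counts of Id1 were not all whole, so its value is uncertain. The call of Id3 held with each library left out, and that of Id2 was lost without ATR 1 and without ATR 3. The test called 11 of 28 (39.3%, against 23.2% of all genes), with 5 called without ATR 1 and 7 without ATR 2 or without ATR 3. Tbx2, a T-box repressor of the Ink4 locus, stood at 1.01, 4.54 and 2.72 TPM, and ATR 2 had 4.61 times (3.00 to 7.35) the scaled reads of ATR 1. Its relative Tbx3 stood at 0.40, 0.730 and 0.590 TPM, at a ratio of scaled reads of 2.80 (1.41 to 5.94). Reads per TPM of Tbx3 varied by 26.9% between libraries, and its call was lost without ATR 1 (adjusted p = 0.121). The call of Tbx2 held with each library left out. Both were lowest in ATR 1, where Cdkn2a and Cdkn2b were lowest too, and the part of either regulator in that was not tested.

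Of 20 genes linked to senescence, a state of lasting arrest in which p16 and p21 are known to be high, the median was 44.3 TPM, with 18 above 1 TPM and 7 above 100 TPM. Secreted products led the list. Igfbp5, which binds insulin-like growth factors, stood at 1817, 1388 and 1373 TPM and the protease inhibitor Timp1 at 448.4, 498.8 and 485.6 TPM. Many cultured mesenchymal cells express these genes without being senescent, so the list gives levels and no state. The test called 10 of 18 tested (55.6%), against 23.2% of all genes and 50.7% of those at 100 TPM or more. Without ATR 1 it called 4, where 1528 of 12866 genes tested were called. Igfbp5 and Timp1 were among the calls lost without ATR 1. Called members included the chemokines Ccl2, with ATR 2 at 2.65 times ATR 3 (2.17 to 3.25), and Cxcl1, with ATR 2 at 1.79 times ATR 1 (1.28 to 2.51). The call of Ccl2 was lost without ATR 2 (adjusted p = 0.0627) and that of Cxcl1 without ATR 1 (adjusted p = 0.901).

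**Figure D4:**
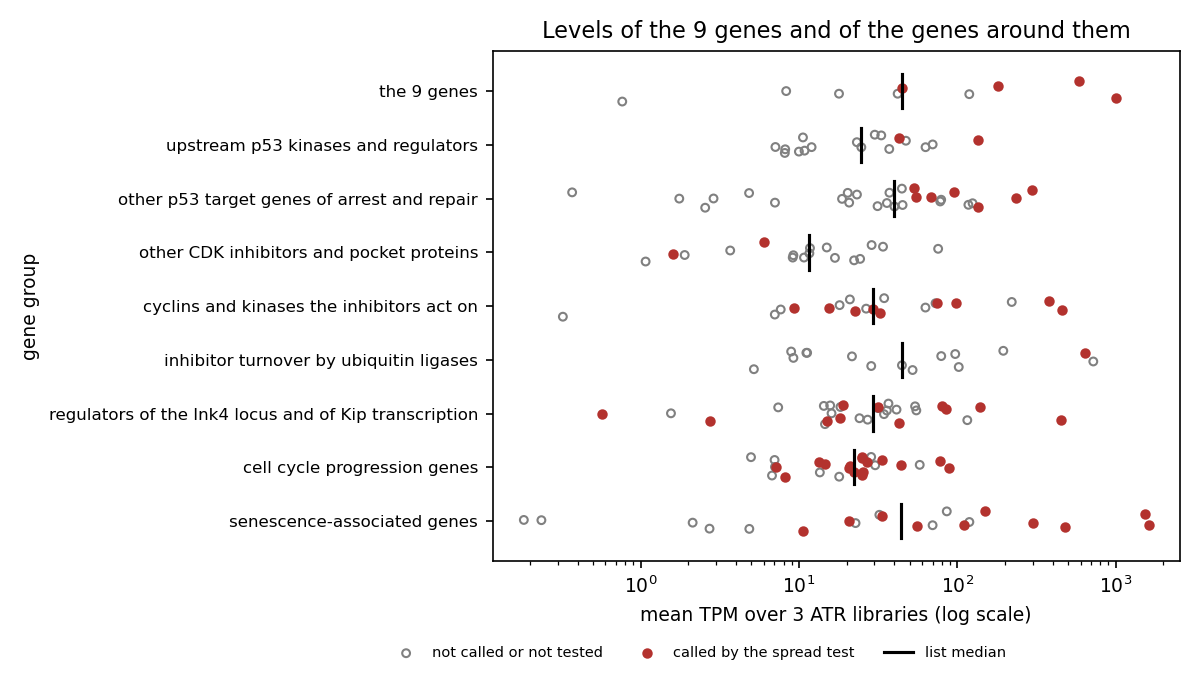
Mean TPM over the 3 ATR libraries (log scale) of the 9 genes and of the members of 8 gene lists, with filled points for genes called by the spread test and a black bar at each median. The 9 genes have a median of 44.8 TPM and reach from below 1 TPM to above most members of the other lists.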

How the data were processed

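Per the file headers, the authors deposited for each gene and library a TPM value and an estimated count of reads. Tools listed in the submitters' processing notes are HISAT2 2.2.1, StringTie 2.1.5 and fastp 0.20.1, beside the builds Rnor_6.0 and GRCm38, all without a role. The sources used here do not give how reads were assigned to genes. Of the deposited estimated counts, 19.0% to 19.2% per library differ from a whole number by more than 0.001, but those of all 9 genes are whole. No strand-marking step is described per the labels' protocols, so antisense reads cannot be told apart.

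Counts were rounded and scaled by TMM in edgeR 4.0.16 (R 4.3.3). Its common biological coefficient of variation was 8.24% over 12856 genes in an intercept-only model. Spread between libraries was tested by chi-square over all genes with at least 30 reads. The test code was checked on simulated counts. Intervals of read ratios are exact 95% (Clopper-Pearson) and take in counting error alone. Alternatives used library totals, DESeq2 1.42.0 size factors, other read minimums, whole counts only and each library left out.

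The members and lists were chosen with earlier results of these data known. Named were the 9 members, and in each list the 3 highest genes and the 2 called genes with the largest ratio between libraries. Mdm4, Rbl2, Cdk2, Cdk6, Ccng2, Gadd45a, some other list genes and some markers were named outside that rule, after their values were seen. Of the genes this rule names, 2 are not reported here. Of 243 list entries, 11 were not matched. Python 3.11.15, numpy 2.4.6, pandas 2.3.3, scipy 1.17.1 and matplotlib 3.10.9 were used.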

Additional observations from a re-analysis of the deposited data

How the results depend on the processing

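No paired analysis was possible because every column analysed is of 1 group, ATR. For that reason ATR was not tested against Control, nor was that test repeated (with DESeq2, no filter on low counts, each replicate left out, or with the replicate block). Of all genes tested, 3087 varied beyond counting noise, 1528 (without ATR 1) to 2230 (without ATR 3) with a library left out and 2125 to 3167 under the other alternatives. For the 9 genes the count of 4 became 2 to 4 with a library left out, 6 with library totals and 5 with DESeq2 size factors, while read minimums of 10 or 100 and whole counts gave 4. Tests on fewer libraries have less power. Cdkn1a was called under each of the 8 alternatives, at an adjusted p of at most 0.0253, Mdm2 under 7, and Cdkn2a and Ccng1 under 6 each. Rb1 was called under 3 and Cdkn1b under 2, and Cdkn2b and Cdkn2c were called under none of them, with the smallest adjusted p at 0.0512 and 0.361. At limits of 0.5 and 5 TPM, 9 and 8 genes passed. With a library left out, the mean of Cdkn1a ran from 989.2 (without ATR 2) to 1037 TPM (without ATR 3). That of Cdkn2a ran from 41.5 (without ATR 3) to 47.6 TPM (without ATR 1). The ratio of Ccng1 was 1.06 in TPM against 1.03 in scaled reads. Alternatives for single genes, lists and ratios were chosen after seeing the data. Depth limits Cdkn1c, with 12 to 15 reads per library.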
